A study of Mus musculus with 6 samples.

Results

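Branched-chain amino acid breakdown was followed through 10 genes of the pathway in brown and white fat cells of the mouse, from the preadipocyte to the differentiated adipocyte. The genes, *Bcat1*, *Bcat2*, *Bckdha*, *Bckdhb*, *Dbt*, *Ivd*, *Mccc1*, *Hibch*, *Hibadh* and *Pcca*, were taken by symbol from a gene expression table of 34465 symbols. All 10 had an entry, and all 10 were among the 14413 genes with an FPKM (fragments per kilobase of transcript, scaled to the depth of the library) of 1 or more in any library. Primary brown (BAT) and white (WAT) preadipocytes came from the interscapular and the inguinal fat of BL6 mice killed at 3 weeks of age, as stromal vascular fractions from a harvest of 8 animals, and how these were shared between cultures is not stated. Both cell types were grown to confluence (day 0) and then induced with insulin, dexamethasone, 3-isobutyl-1-methylxanthine and rosiglitazone, followed by a maintenance medium without these agents. Total RNA was sequenced on days 0, 4 and 6, with 1 library for each cell type and day so that the 6 libraries hold no replicates. None of the 6 libraries is labelled as treated with norepinephrine or as carrying a transgene, and rosiglitazone, an agonist of PPARγ, was given to both cell types.

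Leucine, isoleucine and valine are taken apart in mitochondria. A transaminase, *Bcat1* in the cytosol or *Bcat2* in mitochondria, moves the amino group to α-ketoglutarate, and the branched-chain α-keto acid dehydrogenase complex (BCKDH) then removes a carboxyl group in a step that cannot be reversed. Each keto acid has its own route after that, which ends in acetyl-CoA, acetoacetate or propionyl-CoA, and differentiated adipocytes are known to draw on these products for lipogenesis and for the tricarboxylic acid (TCA) cycle.

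The promoter letters of 4 genes are shown because *Bcat1* and *Bcat2* were the pair that moved in opposite directions, and because *Ivd* and *Hibch* held the most copies of 1 searched box among the genes. The windows run from 250 bases before to 50 bases after an annotated start, were read from RefSeq (GRCm38.p6), and 9 of the 10 genes, all but *Dbt*, matched an entry, with 13 starts between them. Capitals mark CCAAT (the box bound by NF-Y) or GGGCGG (a box bound by SP and KLF factors), on either strand. The windows are *Bcat1* chr6:145076108-145076407 (minus strand), *Bcat2* chr7:45569903-45570202 (plus), *Ivd* chr2:118861744-118862043 (plus) and *Hibch* chr1:52844788-52845087 (plus), and coordinates of whole genes given later are those of mm9, the build of the expression table.
Bcat1: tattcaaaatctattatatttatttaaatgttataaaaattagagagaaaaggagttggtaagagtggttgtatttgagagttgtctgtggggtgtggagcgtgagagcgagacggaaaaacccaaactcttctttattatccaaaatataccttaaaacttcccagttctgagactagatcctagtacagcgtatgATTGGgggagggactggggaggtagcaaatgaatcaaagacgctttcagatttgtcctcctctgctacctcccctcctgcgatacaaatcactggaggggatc
Bcat2: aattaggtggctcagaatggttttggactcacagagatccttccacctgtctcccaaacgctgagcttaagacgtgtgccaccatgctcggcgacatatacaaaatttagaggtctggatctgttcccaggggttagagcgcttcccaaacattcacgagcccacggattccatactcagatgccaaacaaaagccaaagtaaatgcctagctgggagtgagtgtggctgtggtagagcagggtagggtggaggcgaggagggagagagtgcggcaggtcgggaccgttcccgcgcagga
Ivd: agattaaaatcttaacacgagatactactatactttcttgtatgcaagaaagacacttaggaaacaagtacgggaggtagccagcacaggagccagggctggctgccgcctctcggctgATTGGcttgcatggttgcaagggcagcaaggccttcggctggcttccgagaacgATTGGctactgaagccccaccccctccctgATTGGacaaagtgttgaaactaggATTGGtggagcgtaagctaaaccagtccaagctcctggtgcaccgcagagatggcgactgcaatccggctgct
Hibch: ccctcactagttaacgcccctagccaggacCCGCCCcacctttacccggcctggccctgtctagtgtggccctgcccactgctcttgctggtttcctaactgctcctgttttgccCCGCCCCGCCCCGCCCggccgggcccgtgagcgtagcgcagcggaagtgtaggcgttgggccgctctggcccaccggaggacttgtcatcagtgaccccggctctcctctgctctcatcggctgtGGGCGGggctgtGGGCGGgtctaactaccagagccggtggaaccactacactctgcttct

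The *Ivd* window held 4 CCAAT boxes, all on the reverse strand, with first bases at -131, -77, -47 and -23 from the start. The *Hibch* window held 6 GGGCGG boxes, of which the 3 at -135, -130 and -125 overlap each other. The window of *Bcat1* had 1 CCAAT box, at -53, and that of *Bcat2* had neither box. In both genes a further start of the RefSeq table held none of the searched letters. Across the 9 genes, CCAAT was found in 6 (*Bcat1*, *Bckdhb*, *Hibadh*, *Ivd*, *Mccc1* and *Pcca*), at 8 of the 13 starts. It was found in 37.4% of all 32851 promoters of the table. GGGCGG was found in 5 (*Bckdhb*, *Hibadh*, *Hibch*, *Mccc1* and *Pcca*), at 5 of the 13 starts, and in 35.7% of all promoters. The share of promoters is set against starts, since a gene with more than 1 start can hold a box at any. The NRF1 motif was found in *Hibadh* alone, at 1 of the 13 starts, and in 4.60% of all promoters. The direct repeat of PPAR and RXR was found in none of the 9 and in 0.0396% of all, AAGGTCA, the ERR site, in none and in 4.72%, and the E-box CACGTG in none and in 7.15%. Both strands were searched, and a PPAR repeat can overlap an ERR site. These matches describe letters in the windows and were not tested against expression.

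Some features of the libraries bear on all values. The depth that the steps of low FPKM values imply was 8.95 M fragments for WAT on day 0 and 17.4 to 22.15 M for the other 5. BAT on day 0 had the lowest FPKM sum, 525714, and the others had 740823 to 842757. The deposited columns for white cells carry the name of the subcutaneous depot and were taken as WAT. The white marker *Hoxc10* was at 14.9 to 26.2 FPKM in WAT and at 0 to 0.0879 in BAT, and the brown marker *Zic1* went from 14.5 to 3.27 and 2.39 over the days in BAT and did not exceed 0.0852 in WAT. *Ucp1*, the uncoupling protein of brown fat, was low also in the brown cells, at 0, 9.92 and 3.65 FPKM over the days, against 1.49, 0.477 and 0.175 in the white cells.

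To ask how the genes moved as the cells differentiated, days 4 and 6 were compared with day 0 on the log2(FPKM + 1) scale. Of the 10 genes, 9 rose and *Bcat1* fell, at a p under 0.05 after Benjamini-Hochberg adjustment over all genes tested, in an additive limma model of cell type and day. These calls depend on the filter: with no filter on low values none of the 10 passed (limma adjusted p between 0.0536 and 0.283), and with genes at 0 in every library left out, an alternative added after the data were seen, 8 rose and 1 fell. Of all 14413 genes, 11.3% rose and 10.6% fell by the same test. The median log2 change was 3.02 over the 10 genes and 3.21 without *Bcat1*, against -0.13 over all genes tested. Scaling each library to the same sum (TPM) moved the median of all genes to -0.36 and that of the 10 to 2.78, and 9 of 10 were above 0 under each of the other scalings run. The spread in this model is what the additive terms leave over, so noise is mixed there with responses in which BAT and WAT differ. In bulk RNA, fewer cells of a type and less RNA per cell cannot be told apart.

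**Figure D1:**
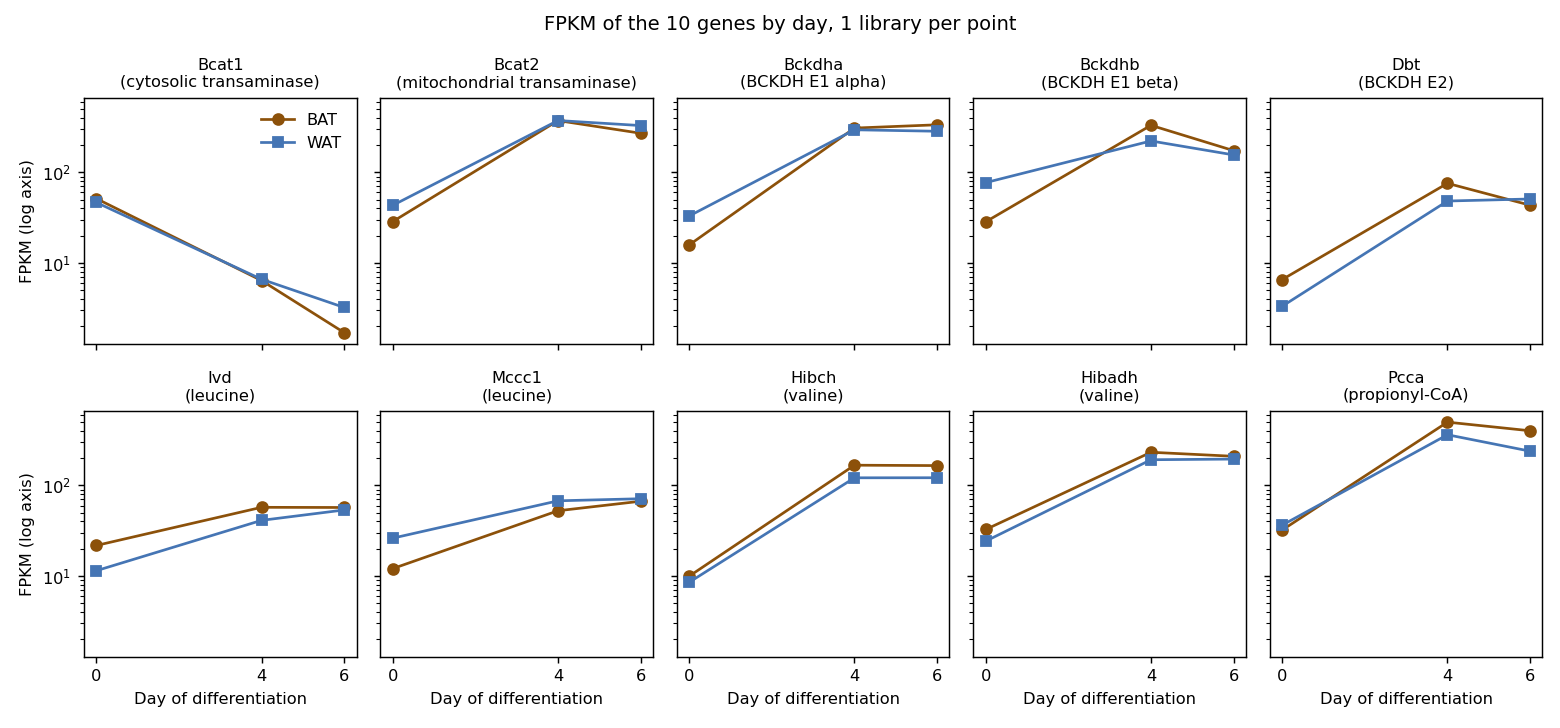
FPKM (log axis) of the 10 genes on days 0, 4 and 6 in BAT (brown circles) and WAT (blue squares), with 1 library per point and no error bars. *Bcat1* drops from 51.4 to 1.70 (BAT) and from 46.6 to 3.22 (WAT), while the other 9 genes are higher on days 4 and 6 than on day 0 in both cell types.

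The pathway opens with the transaminases, and here the genes split. *Bcat1* (ENSMUSG00000030268, mm9 chr6:144942355-145024704, minus strand) was at 51.4, 6.39 and 1.70 FPKM on days 0, 4 and 6 in BAT and at 46.6, 6.60 and 3.22 in WAT. It was highest on day 0, lower on day 4 and lowest on day 6 in both cell types, and the values of day 0 did not overlap those of the later days. Its log2 change was -3.31 (SE 0.30, limma adjusted p = 0.00202), and from day 0 to day 6 the FPKM was 30.3-fold lower in BAT and 14.5-fold lower in WAT. Its percentile among all genes tested was 89.3 on day 0 and 25.7 on day 6 for BAT, and 86.5 and 33.7 for WAT. *Bcat2* (ENSMUSG00000030826, mm9 chr7:52825523-52845080, plus strand) went the other way, with 28.6, 374 and 271 FPKM in BAT and 43.3, 374 and 329 in WAT. Day 4 was the highest day in both cell types, at nearly the same level in the brown and the white cells, and day 6 was between days 0 and 4. The log2 change of *Bcat2* was 3.21 (SE 0.28, limma adjusted p = 0.00184).

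The ratio of *Bcat2* to *Bcat1* therefore turned over. It was 0.557 in BAT and 0.929 in WAT on day 0, so that the cytosolic form had the higher FPKM in both preadipocyte libraries. In WAT, the shallowest library on that day, the levels were close. With the length trend removed, the log2 difference of BAT minus WAT on day 0 went from 0.14 to -0.85 for *Bcat1* and stayed at -0.58 for *Bcat2*. Which cell type had the higher day 0 ratio thus depends on this setting. On day 4 the ratio of *Bcat2* to *Bcat1* was 58.5 in BAT and 56.7 in WAT, and on day 6 it was 159 and 102. As a share of the summed FPKM of both genes, *Bcat2* made up 35.8% (BAT) and 48.2% (WAT) on day 0 and 98.3% in both on day 4. On day 6 its share was 99.4% in BAT and 99.0% in WAT. The sum itself grew from 80.1 to 380 FPKM in BAT between days 0 and 4, and from 89.8 to 381 in WAT.

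**Figure D2:**
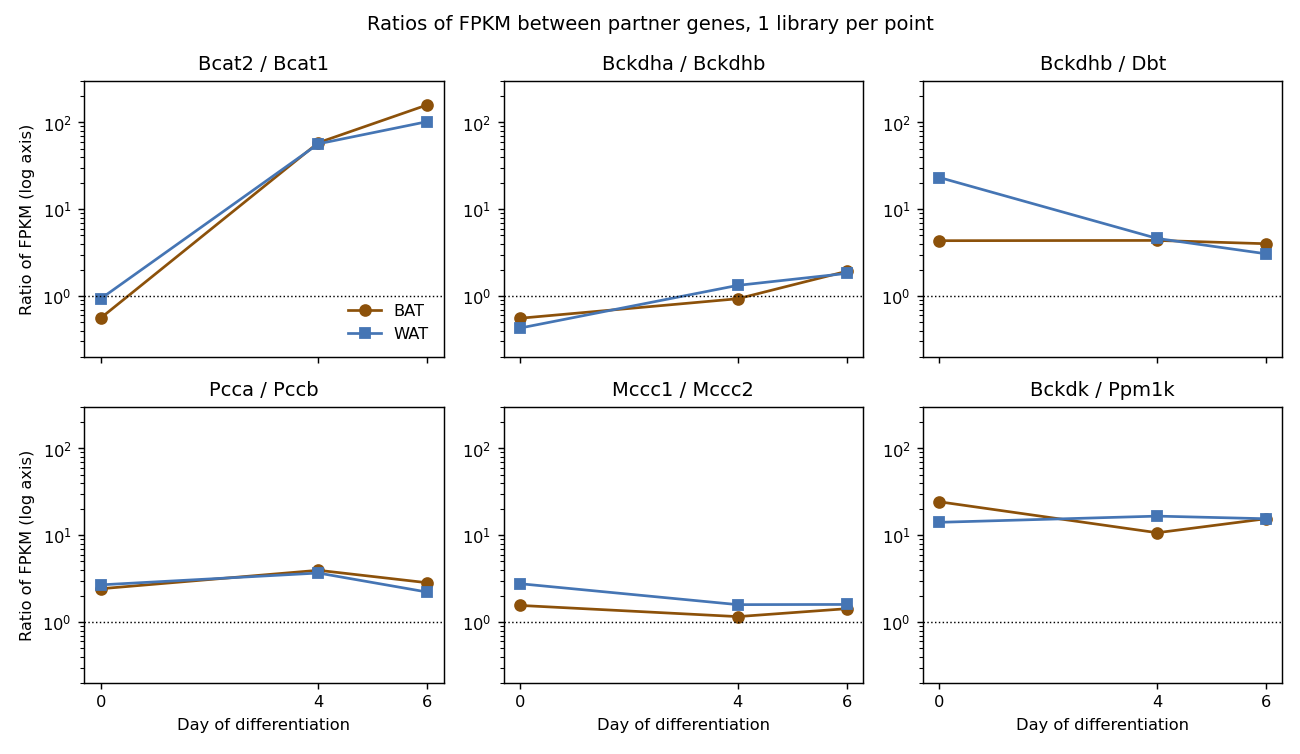
Ratio of FPKM (log axis) between 6 pairs of partner genes on days 0, 4 and 6, with 1 library per point; the dotted line marks equal levels. *Bcat2* over *Bcat1* climbs from 0.557 and 0.929 to 159 in BAT and 102 in WAT, while the subunit pair *Pcca* over *Pccb* stays between 2.22 and 3.95.

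The committed step belongs to BCKDH, of which *Bckdha* and *Bckdhb* encode the α and β chains of the decarboxylase E1 and *Dbt* the transacylase E2. *Bckdha* (ENSMUSG00000060376, mm9 chr7:26414871-26443780, minus strand) was at 15.8, 309 and 336 FPKM in BAT and at 33.0, 296 and 285 in WAT on days 0, 4 and 6. It was low on day 0 and level between days 4 and 6, and its log2 change was 3.68 (SE 0.35, limma adjusted p = 0.00208). From day 0 to day 4 the FPKM grew 19.5-fold in BAT, the largest such ratio on that day among the 10 genes. *Bckdhb* (ENSMUSG00000032263, mm9 chr9:83818757-84017846, plus strand) was at 28.5, 331 and 174 FPKM in BAT and at 77.1, 223 and 156 in WAT. It peaked on day 4 in both cell types, and the day 0 level was higher in WAT than in BAT. Its log2 change was 2.15 (SE 0.44, limma adjusted p = 0.0191), with the largest SE among the 10 genes. *Dbt* (ENSMUSG00000000340, mm9 chr3:116215988-116252894, plus strand) was the lowest of the 3, at 6.55, 75.7 and 43.4 FPKM in BAT and at 3.32, 48.3 and 50.9 in WAT. It peaked on day 4 in BAT, was level between days 4 and 6 in WAT, and changed by 3.25 (SE 0.30, limma adjusted p = 0.00208). The day 0 value of *Dbt* in WAT rests on about 98.0 fragments by the depth estimate.

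The subunits did not keep one ratio. *Bckdha* over *Bckdhb* was 0.555, 0.932 and 1.93 over days 0, 4 and 6 in BAT and 0.428, 1.33 and 1.82 in WAT, so the α chain passed the β chain in both cell types by day 6. *Bckdhb* over *Dbt* was 4.35, 4.38 and 4.01 in BAT. In WAT it was 23.2 on day 0 and 4.61 and 3.07 later, and WAT on day 0 is the shallowest library. *Dld*, the E3 subunit that BCKDH shares with the pyruvate and α-ketoglutarate dehydrogenases, was at 44.4, 309 and 216 FPKM in BAT and 26.9, 223 and 172 in WAT, and it rose with a log2 change of 2.67 (SE 0.26, limma adjusted p = 0.00224). BCKDH is switched off by the kinase *Bckdk* and on by the phosphatase *Ppm1k*. Both rose, *Bckdk* by 1.56 (SE 0.28, limma adjusted p = 0.0126) and *Ppm1k* by 1.35 (SE 0.32, limma adjusted p = 0.0297) on the log2 scale, less than *Bckdha* in size. *Ppm1k* stayed low, at 1.10 to 5.59 FPKM over the 6 libraries, against 15.5 to 67.8 for *Bckdk*. *Bckdha* over *Bckdk* was 0.571 (BAT) and 2.13 (WAT) on day 0 and between 4.49 and 5.16 in the 4 later libraries.

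Leucine alone passes through *Ivd* and *Mccc1*, and these were the smallest of the 9 rises in the limma estimate over both cell types. In WAT alone *Bckdhb* rose least to day 6, by 1.01 on the log2 scale, against 1.41 for *Mccc1* and 2.13 for *Ivd*. To day 4 in WAT it rose by 1.52, against 1.34 and 1.76. *Ivd*, isovaleryl-CoA dehydrogenase (ENSMUSG00000027332, mm9 chr2:118687690-118708645, plus strand), was at 21.7, 57.3 and 57.1 FPKM in BAT and at 11.4, 41.1 and 53.5 in WAT. It reached its later level by day 4 in BAT and was highest on day 6 in WAT, with a log2 change of 1.65 (SE 0.27, limma adjusted p = 0.00920). *Mccc1*, the biotin-carrying α chain of 3-methylcrotonyl-CoA carboxylase (ENSMUSG00000027709, mm9 chr3:35858234-35899600, minus strand), was at 12.1, 52.5 and 66.9 FPKM in BAT and at 26.1, 67.6 and 71.3 in WAT. It was highest on day 6 in both cell types, and its log2 change was 1.79 (SE 0.29, limma adjusted p = 0.00908). Its partner chain *Mccc2* rose by 2.26 (SE 0.24, limma adjusted p = 0.00292), from 7.74 to 46.9 FPKM (BAT) and 9.44 to 44.6 FPKM (WAT) between days 0 and 6. *Mccc1* over *Mccc2* was 1.56 (BAT) and 2.77 (WAT) on day 0 and between 1.16 and 1.60 afterwards.

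Valine has its own pair of enzymes here, and *Hibch* had the largest log2 change of the 10 genes in the limma estimate over both cell types. In BAT alone *Bckdha* was higher, at 4.20 and 4.32 for days 4 and 6 against 3.94 and 3.93 for *Hibch*. *Hibch*, which frees 3-hydroxyisobutyrate from CoA (ENSMUSG00000041426, mm9 chr1:52901857-52977830, plus strand), was at 9.95, 167 and 166 FPKM in BAT and at 8.52, 121 and 122 in WAT. The levels of days 4 and 6 were nearly equal within each cell type, and the log2 change was 3.81 (SE 0.24, limma adjusted p = 0.00110). *Hibadh*, which oxidises 3-hydroxyisobutyrate (ENSMUSG00000029776, mm9 chr6:52496222-52590383, minus strand), was at 32.6, 233 and 210 FPKM in BAT and at 24.2, 192 and 196 in WAT. It changed by 2.84 (SE 0.25, limma adjusted p = 0.00201) and was higher than *Hibch* in every library. *Hibch* over *Hibadh* was 0.305 (BAT) and 0.351 (WAT) on day 0 and between 0.622 and 0.789 later. The next enzyme of this route, *Aldh6a1*, methylmalonate semialdehyde dehydrogenase, rose by 4.20 (SE 0.39, limma adjusted p = 0.00208), from 12.1 to 156 FPKM (BAT) and 2.83 to 105 FPKM (WAT) between days 0 and 4.

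Valine and isoleucine both give propionyl-CoA, which *Pcca*, the biotin-carrying α chain of propionyl-CoA carboxylase, takes on (ENSMUSG00000041650, mm9 chr14:122933546-123290322, plus strand). *Pcca* was at 32.2, 500.3 and 402 FPKM in BAT and at 36.4, 363 and 239 in WAT on days 0, 4 and 6. It had the highest FPKM of the 10 genes in BAT on days 4 and 6, peaked on day 4 in both cell types and changed by 3.37 (SE 0.31, limma adjusted p = 0.00206). Another gene lies within the *Pcca* locus, and whether reads were counted by strand is not stated, so reads of one could be counted for the other. The β chain *Pccb* rose by 3.04 (SE 0.25, limma adjusted p = 0.00162), and *Pcca* over *Pccb* stayed between 2.22 and 3.95 in all 6 libraries. Downstream of both, *Mcee*, methylmalonyl-CoA epimerase, changed by 2.52 (SE 0.27, limma adjusted p = 0.00292) and *Mut*, the mutase that makes succinyl-CoA, rose as well (limma adjusted p = 0.0219), from 17.3 to 45.6 FPKM (BAT) and 2.90 to 27.5 FPKM (WAT) between days 0 and 4.

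**Figure D3:**
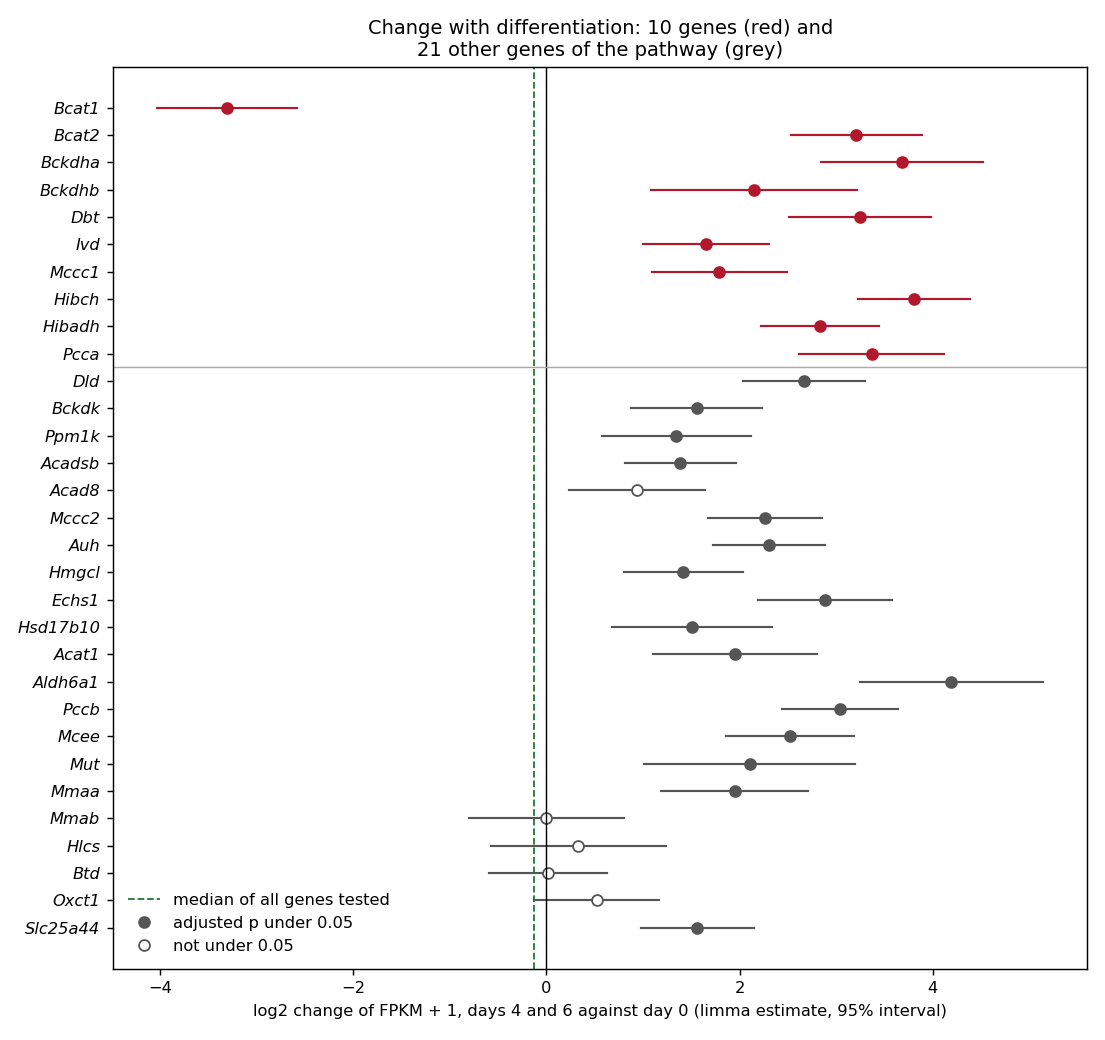
Estimated log2 change of FPKM + 1, days 4 and 6 against day 0 over both cell types, with the 95% interval of the limma model for the 10 genes (red) and for 21 other genes of the pathway (grey). Of the red points 9 lie right of 0, *Bcat1* lies at -3.31, and the dashed line gives the median of all genes tested, -0.13.

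The other genes of the pathway showed the same direction in most cases. Of all genes tested 11.3% rose, and fewer did without the day 4 libraries. Of the 21 other pathway genes 16 rose, none fell and 5 did not pass the test, with a median log2 change of 1.56. The count rests on the day 4 libraries, with 6 rising without BAT on day 4, 7 without WAT on day 4 and 2 without both, and none passed with no filter on low values. The 5 were *Acad8*, the isobutyryl-CoA dehydrogenase of the valine route, at 0.94 (SE 0.29, limma adjusted p = 0.0667), *Oxct1*, which activates acetoacetate, at 0.52, *Hlcs* and *Btd*, which attach and recycle biotin, at 0.33 and 0.01, and *Mmab*, which makes the cobalamin cofactor of the mutase, at 0.00. Biotin is the cofactor of *Mccc1* and *Pcca*, both of which rose. *Slc25a44*, the mitochondrial carrier of branched-chain amino acids, rose by 1.56 (SE 0.24, limma adjusted p = 0.00786), from 11.3 to 39.9 FPKM (BAT) and 7.84 to 26.7 FPKM (WAT) between days 0 and 4. It was the 1 gene to rise among 5 tested for amino acid transport. *Slc3a2*, the heavy chain of the plasma membrane exchanger, was at 78.0, 62.4 and 43.6 FPKM in BAT and 99.3, 61.5 and 62.2 in WAT, which did not pass (limma adjusted p = 0.133).

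Genes that handle the amino group or the carbon skeletons next to the pathway were followed too. Of 7 genes of glutamate handling 2 rose, *Glul*, glutamine synthetase, by 3.96 (SE 0.27, limma adjusted p = 0.00110) and *Gpt*, an alanine transaminase, by 4.64 (SE 0.28, limma adjusted p = 0.00108). All 6 genes for the related pyruvate and α-ketoglutarate dehydrogenases, of which *Ogdh* and *Dlst* also stand in the TCA list, rose, with a median of 2.28, as did both biotin carboxylases of fatty acid synthesis and control that were tested, *Acaca* and *Acacb*. Of the 17 genes of the TCA cycle 16 rose, with a median of 2.65, and *Idh2* did not pass (1.07, limma adjusted p = 0.120). Of 6 kinases and phosphatases of the pyruvate dehydrogenase 3 rose (*Pdk1*, *Pdk2* and *Pdk4*) and *Pdk3* fell, by 1.10. Of 6 regulators 3 rose, *Pparg*, *Cebpa* and *Mlxipl*, whereas *Klf15*, a regulator of amino acid breakdown in muscle and liver, changed by 1.59 without passing (SE 0.53, limma adjusted p = 0.0800). The rise of the 9 genes thus came with a rise in much of mitochondrial carbon metabolism, and it was not tested against those lists.

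Cell type markers moved over the same days. Of 7 adipocyte markers 6 rose, and their summed FPKM was 1218 and 2035 on day 0 and between 27070 and 48345 later. Most of the later sums was *Fabp4*, at 297 (BAT) and 1052 (WAT) on day 0 and between 22119 and 42705 later. *Lpl*, the 1 that did not pass, was at 793 and 765 on day 0. Of 6 preadipocyte markers 3 fell, and their sum was 4929 and 2435 on day 0 and between 421 and 1142 later. Of this sum *Col1a1* alone was 4004 (BAT) and 1444 (WAT) on day 0 and between 253 and 649 later. Of 10 macrophage markers 6 rose, from sums of 26.1 in BAT and 98.5 in WAT on day 0 to 58.3 to 308 later, with *Ptprc* at no more than 1.37 FPKM. Of 7 brown markers tested 2 rose (*Cidea* and *Cox7a1*) and of 4 white markers 1 (*Retn*). Of 5 endothelial markers 1 fell, with sums of 3.08 to 18.4 over the 6 libraries. Of the muscle markers *Mylpf* alone passed the filter, and it did not pass the test. *Myod1* and *Ckm* were at 0.130 and 0.706 FPKM in WAT on day 0 and at 0 in all other libraries. *Mylpf* itself was at 0.934, 0.715 and 4.68 FPKM over the days in BAT and 3.71, 1.95 and 0.268 in WAT, and *Myog* was at 0.0453, 0.196 and 0.154 in BAT and at 0 in WAT. The part of these cell types in the change of the 10 genes was not tested.

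The change was present by day 4. Against day 0, day 4 gave 9 of the 10 genes higher and 1 lower by limma (9.14% and 8.83% of all genes), and day 6 gave 8 higher and 1 lower (7.92% and 5.74%), with *Bckdhb* short of the threshold on day 6 (log2 change 1.79, SE 0.51, adjusted p = 0.0694). Within each cell type, 9 genes were at least 2-fold higher and *Bcat1* at least 2-fold lower on day 4 and on day 6 than on day 0, by the ratio of FPKM + 1 and with no test. Scaled to TPM, 8 genes were higher in BAT on each day, as *Ivd* was at 0.89 and 0.71 on the log2 scale. For WAT on day 6, 8 were higher with median-ratio scaling, a pseudocount of 5 or the length trend removed, where *Bckdhb* was at 0.84, 0.97 and 0.85. Among all genes the shares higher and lower were 17.1% and 23.2% on day 4 and 16.1% and 25.3% on day 6 in BAT. In WAT they were 15% and 19% on day 4 and 18.5% and 14% on day 6. The calls rest in part on the day 4 libraries, over all genes as well as among the 10, while every estimate of the 10 kept its direction. Over all genes, the rises called went from 1629 to 163 with day 4 left out in both cell types. Without BAT on day 4, and likewise without WAT on day 4, 6 of the 9 rises passed, and *Bckdhb*, *Ivd* and *Mccc1* did not (adjusted p = 0.134, 0.110 and 0.105 without BAT, and 0.0677, 0.0979 and 0.0800 without WAT, by limma). With day 4 left out in both cell types 5 passed, *Dbt* being the further loss, and without BAT on day 6 *Bckdhb* alone was lost (adjusted p = 0.0647).

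Between days 4 and 6 no gene of the 10 passed limma, and none of all 14413 did (0% higher and 0% lower), with 561 genes and 1 of the 10 at an unadjusted p under 0.05. That 1 was *Bcat1*, with a log2 change of -1.15 (SE 0.34). In BAT *Bcat1* was the single gene of the 10 past 2-fold between these days, at 6.39 and 1.70 FPKM, where 3% of all genes were at least 2-fold higher and 3.46% lower. In WAT none of the 10 was past 2-fold, beside 4.42% higher and 2.16% lower of all genes. Of the 9 genes that rose, 7 were higher on day 4 than on day 6 among the brown libraries and 4 among the white. *Bckdhb* showed the widest gap of these in BAT, 331 against 174 FPKM, and *Pcca* in WAT, 363 against 239. *Bckdha* and *Mccc1* were the genes still higher on day 6 in BAT. The counts of 7 and 4 depend on the scaling. Of the 10 genes, 2 in BAT and 5 in WAT were higher on day 6 than on day 4, but 4 and 1 with median-ratio scaling. With the length trend removed these were 3 and 1, and under TPM 1 and 4. Of all 14413 genes, 6495 in BAT and 10035 in WAT were higher on day 6, with FPKM as deposited.

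The levels ranked alike in the differentiated cells. On days 4 and 6 *Bcat2*, *Bckdha*, *Bckdhb*, *Hibadh* and *Pcca* had percentiles between 95.2 and 98.3 among all genes tested in every library, *Hibch* between 93.9 and 95.6, and *Dbt*, *Ivd* and *Mccc1* between 85.2 and 91.3. On day 0 the same 9 genes were spread from percentile 37.1 (*Dbt* in WAT) to percentile 91.1 (*Bckdhb* in WAT). The median of the 10 on day 0 was 25.1 FPKM for BAT and 29.6 for WAT, and on day 6 it was 169.8 and 139. Pearson's r of log2(FPKM + 1) over the 6 libraries was between 0.72 and 0.997 for the 36 pairs of the 9 genes (median 0.95) and between -0.95 and -0.78 for the 9 pairs with *Bcat1*. These values share libraries, days and the large step from day 0, and are a description.

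By distance between centred log2(FPKM + 1) values over the 6 libraries, among 7816 protein-coding genes with at least 10 FPKM in at least 1, the gene most like *Bcat1* was *Tead2*, a TEAD transcription factor (distance 0.937, r = 0.99). *Top2a*, *Il1rl1*, *Rrm2* and *Zfp57* followed. *Tead2* was at 35.1, 5.16 and 2.62 FPKM in BAT and 35.3, 6.99 and 4.73 in WAT. The gene most like *Bcat2* was *5730469M10Rik* (distance 0.361, r = 0.995), followed by *Insl6*, *Mgll*, *Ankrd37* and *Pgk1*. The median profile of the 10 was closest to *Lrrc39* (distance 0.261), with *Tbc1d4*, *Mlycd*, *Hibadh* and *Sdr39u1* next, so that 1 of the 10 was among its own nearest 5.

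BAT was then compared with WAT, across days and on each day. Across days none of the 10 genes passed limma in either direction and none had an unadjusted p under 0.05. None of all 14413 genes passed either (0% higher and 0% lower), with 815 at an unadjusted p under 0.05. The estimates for the 10 were between -0.50 (*Mccc1*, 95% interval -1.16 to 0.16) and 0.48 (*Ivd*, -0.14 to 1.09) on the log2 scale, BAT minus WAT. For *Hibch* the interval was -0.18 to 0.92 and for *Bckdhb*, the widest, -1.23 to 0.78. The bound farthest from 0 was 0.84 for *Hibadh*, the nearest, and -1.23 for *Bckdhb*, the farthest, so differences within these bounds remain possible. The white marker *Hoxc10*, at -4.36 (95% interval -5.11 to -3.61), did not pass either (limma adjusted p = 0.0817). *Bcat1*, *Bckdha* and *Bckdhb* were at -0.18, -0.24 and -0.23, and the sign of each turned under some settings. TPM scaling gave 0.049 for *Bcat1* and 0.012 for *Bckdhb*, and leaving out day 0 in either or both cell types gave 0.15 for *Bckdha* and 0.36 for *Bckdhb*.

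**Figure D4:**
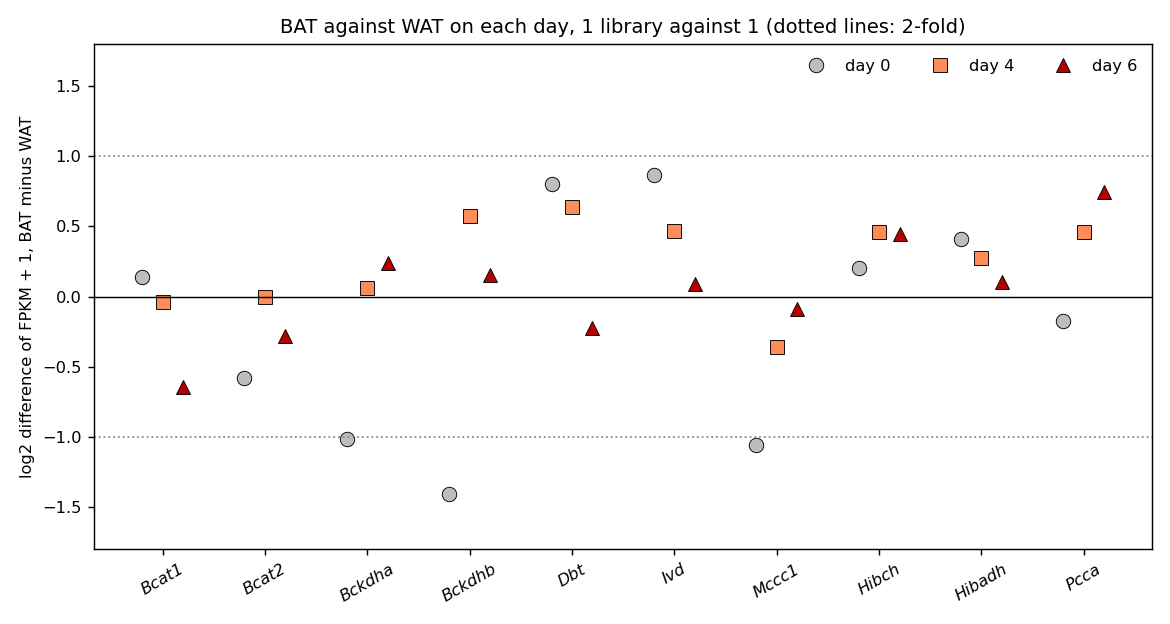
Log2 difference of FPKM + 1, BAT minus WAT, of the 10 genes on day 0 (grey circles), day 4 (orange squares) and day 6 (red triangles), 1 library against 1 with no error; dotted lines mark 2-fold. *Bckdhb*, *Mccc1* and *Bckdha* lie below the lower line on day 0, at -1.41, -1.06 and -1.02, and no gene is past either line on days 4 and 6.

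Day by day, the wide differences were on day 0. *Bckdhb* (28.5 FPKM in BAT and 77.1 in WAT), *Mccc1* (12.1 and 26.1) and *Bckdha* (15.8 and 33.0) were at least 2-fold lower in BAT and none was 2-fold higher, beside 13% lower and 20.7% higher of all genes. *Ivd* (21.7 and 11.4) and *Dbt* (6.55 and 3.32) were higher in BAT, by 0.87 and 0.80 on the log2 scale, short of 2-fold. This split depends on the scaling. With TPM none of the 10 was 2-fold lower in BAT and 3 were 2-fold higher (*Ivd* 1.54, *Dbt* 1.45 and *Hibadh* 1.08). The median over all genes moved from 0.21 to 0.80 with it, and that of the 10 from -0.017 to 0.65. The share of all genes past 2-fold under TPM is not given here, so the count of 3 has no background beside it. *Bckdhb* was lower in BAT without and with TPM scaling, at -1.41 and -0.75. On day 4 none of the 10 was past 2-fold (3.51% higher and 3.08% lower of all genes), and the median was 0.37, beside 0.13 for all genes. On day 6 again none was (1.8% and 4.09%), with a median of 0.10 beside -0.09. *Hibch* was higher in BAT on all 3 days, by 0.20, 0.46 and 0.44, though median-ratio scaling gave *Hibch* -0.077 on day 0. *Hibadh* was higher by 0.41, 0.27 and 0.10. *Mccc1* was lower in BAT on all 3 days, by 1.06, 0.36 and 0.09, though median-ratio scaling gave *Mccc1* 0.057 on day 6. *Pcca* was lower in BAT on day 0 (-0.17, but 0.49 with TPM) and higher on days 4 and 6 (0.46 and 0.75), and on day 6 it was the highest of the 10 in this comparison.

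The size of the rise was set side by side in the cell types. *Bckdhb* rose from day 0 to day 4 by 3.50 on the log2 scale in BAT and by 1.52 in WAT, and to day 6 by 2.57 and 1.01. *Bckdha* rose to day 6 by 4.32 in BAT and 3.07 in WAT, and *Dbt*, in the other direction, by 2.56 and 3.58. The rise was larger in BAT for 6 of the 9 genes on day 4 and for 6 of 9 on day 6, as was the change of 46.6% and 38.2% of all genes tested. These counts depend on the scaling. Under TPM the rise was larger in BAT for 5 and 4 of the 9, beside 28.5% and 21.6% of all genes, and the median difference between the rises of the 9 went from 0.58 to 0.028 on day 4 and from 0.30 to -0.43 on day 6. With 1 library per condition these differences were not tested, and each rests on a day 0 library.

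The rest of the pathway was compared in the same way. None of the 21 other genes differed between BAT and WAT across days by limma, and none had an unadjusted p under 0.05. On day 0, 3 were at least 2-fold higher in BAT and 1, *Hsd17b10*, was lower, where 20.7% of all genes were higher and 13% lower, and on days 4 and 6 none was past 2-fold. The 3 were *Mut*, *Aldh6a1* and *Mmab*, of which *Mut* had 17.3 FPKM against 2.90 in WAT and *Aldh6a1* 12.1 against 2.83. The day 0 counts depend on the scaling. Under TPM *Hsd17b10* was at -0.38 on the log2 scale, short of 2-fold. The 3 stayed past 2-fold higher in BAT, joined by *Dld* (1.38), *Bckdk* (1.47), *Acadsb* (1.02), *Auh* (1.18), *Hlcs* (1.41) and *Slc25a44* (1.13). The share of all genes past 2-fold under TPM is not given here. Summed FPKM of the brown markers was 46.8, 1561 and 2107 in BAT and 16.5, 1095 and 1107 in WAT on days 0, 4 and 6, and *Cox7a1* alone was 1.11, 1246 and 1968 of it in BAT and 7.59, 1054 and 1089 in WAT. Without *Cox7a1* the brown sum was 45.6, 316 and 138 in BAT and 8.95, 41.0 and 18.2 in WAT. Of this, *Cidea* alone was 0, 284 and 115 in BAT and 2.43, 34.1 and 9.84 in WAT. Of the 7 brown markers tested, 3 were at least 2-fold higher in BAT on day 0 (*Zic1*, *Lhx8* and *Ebf2*). Another 3 were at least 2-fold lower (*Ucp1*, *Cidea* and *Cox7a1*). The sum of the 4 white markers was 15.5, 277 and 545 in BAT and 77.7, 983 and 1178 in WAT. Of the white sum *Retn* alone was 6.34, 253 and 521 in BAT and 24.7, 931 and 1105 in WAT. The macrophage sum was lower in BAT on each day, at 26.1, 58.3 and 82.4 against 98.5, 153 and 308, and the preadipocyte sum was higher in BAT on day 0 and lower on days 4 and 6. The part of depth, of other cell types and of the stage of the cultures in the day 0 differences was not tested.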

How the data were processed

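A directional kit was used for the libraries, and the authors aligned reads to mm9 with TopHat 2.0.11 and deposited gene FPKM from Cufflinks 2.1.1; whether counting used strand is not given in the sources used here. The table has 37841 entries and 34465 symbols; of a repeated symbol the entry of highest mean was kept. Of the gene IDs, 97.9% are in GENCODE M1. No counts were tested. Depth was read from the steps of low FPKM values in genes with a single transcript, where 87.2% to 91.9% of values came within 0.1 of a whole fragment.

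The 14413 genes that reached an FPKM of 1 in any library were tested as log2(FPKM + 1), which understates changes of low genes, with limma 3.58.1 in R 4.3.3 (terms for cell type and day, variance trend, 2 residual and 4.26 prior degrees of freedom, Benjamini-Hochberg adjustment). Whether libraries came from separate cultures is not stated, so the noise within the spread behind the p-values may be technical. That spread also holds responses in which BAT and WAT differ. The fit was checked with a self-test. For 9 pairs of libraries a 2-fold rule was used, without a test. Named genes were the 10 genes, genes of fixed lists (21 other pathway genes, transport, glutamate, dehydrogenase relatives, their kinases and phosphatases, biotin carboxylases, regulators, TCA cycle and cell type markers) and the 5 genes of most like pattern. *Slc7a5*, *Pc* and *Acta1* of these lists are not analysed here. Genes and lists were chosen with earlier results of these data known. Alternatives were pseudocounts of 0.1 and 5, other filters and scalings, symbols summed, no variance trend, fold rules of 1.5 and 4, and libraries or days left out. Chosen after the data were seen were a transcript length trend removed (lowess, span 0.3), protein-coding genes alone, single day contrasts, and no filter with genes at 0 in every library left out. Python 3.11.15, pandas 2.3.3, statsmodels 0.14.6 and matplotlib 3.10.9 were used.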

Additional observations from a re-analysis of the deposited data

Results flagged for a closer look

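With 1 library per condition, several genes of the pathway lay on one side of WAT in BAT on day 0 and on the other side on both days 4 and 6, or changed in opposite directions in the cell types. None of these differences was tested. The share of all genes that changed side or direction in this way is not given here, so the genes named have no background. Over all genes tested, the median log2 difference of BAT minus WAT was 0.21, 0.13 and -0.09 on days 0, 4 and 6. The values that follow are the log2 difference of FPKM + 1 between BAT and WAT, as the mean of days 4 and 6 minus day 0. Among the 10 genes, *Bckdhb* was at 1.77, *Bckdha* at 1.17 and *Pcca* at 0.78, all lower in BAT on day 0 and higher on days 4 and 6. *Bcat1* was at -0.48, higher in BAT on day 0 and lower afterwards. Under TPM the day 0 differences of *Bcat1*, *Bckdha*, *Bckdhb* and *Pcca* were 0.81, -0.37, -0.75 and 0.49, so that of *Pcca* then had the sign of the later days. The day 4 difference of *Bcat1* under TPM was 0.061, the sign of its day 0. With median-ratio scaling the day 4 difference of *Bckdha* was -0.14 and the day 0 difference of *Bcat1* -0.16, and with the length trend removed these were -0.020 and -0.85.

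Of the other pathway genes, *Acat1* was at 1.29, *Acad8* at 0.80, *Mcee* at 0.69, *Mmaa* at 0.68, *Pccb* at 0.40, *Mccc2* at 0.34 and *Btd* at -0.32. All but *Btd* were lower in BAT on day 0. Under TPM the day 0 differences of *Acad8* (0.49), *Mcee* (0.26), *Pccb* (0.62) and *Mccc2* (0.37) had the sign of the later days, while those of *Acat1* (-0.14), *Mmaa* (-0.062) and *Btd* (0.70) did not. With median-ratio scaling *Mccc2* on day 4 (-0.10) and *Btd* on day 0 (-0.24) turned, and with the length trend removed *Mcee* on day 0 (0.38), *Mccc2* on day 4 (-0.026) and *Btd* on day 0 (-0.035) did. *Mmab*, at 25.1, 16.0 and 17.3 FPKM in BAT and 11.2, 16.0 and 18.0 in WAT, was lower on both later days than on day 0 in BAT and higher on both in WAT, and its change in BAT minus that in WAT was -1.13.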

How the results depend on the processing

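No paired analysis was possible because the labels carry no replicate numbers and each condition has 1 library. All 190 values of the 10 genes' change over days kept their direction, and 168 kept the side of the threshold. With no filter on low values no gene passed (0 of the 10 higher, 0 lower, 0 of the pathway, 0 higher and 0 lower of all genes), with 0.653 prior degrees of freedom over 34465 symbols; with genes at 0 in every library left out, chosen after the data were seen, 8 of the 10 were higher, 1 lower and 13 of the pathway higher, and 955 and 879 of all genes were higher and lower. Without day 4 in both cell types, 5 of the 10 and 2 of the pathway were higher, and 163 and 34 of all genes were higher and lower; without day 6, 992 and 981 were. With single libraries left out, 6 to 9 of the 10, 6 to 16 of the pathway and 296 to 2060 of all genes were higher, and 143 to 2678 were lower; the lowest counts were without BAT on day 4. The cause was not tested.

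Between BAT and WAT, 0 to 3 of all genes passed with single libraries left out, 9 without day 0 and 2 among protein-coding genes alone. Of 200 values of the 10 genes, 11 turned sign: *Bcat1* was at 0.049 under TPM and 0.050 without day 6 in both cell types, *Bckdhb* at 0.012 under TPM and 0.36 without day 0 in both, and *Bckdha* at 0.15 without day 0 in both. With single libraries left out *Bcat1* was between -0.34 and 0.050, *Bckdha* between -0.48 and 0.15 and *Bckdhb* between -0.63 and 0.36. Of the 9 genes higher than on day 0 by the fold rule, 8 remained in BAT on each day and 6 and 7 in WAT by a 4-fold rule. Counts by the fold rule moved by over 1.5 times in 5 comparisons, and the shares of all genes under these settings are not given here. For BAT on day 6 against day 4, 0 were lower at a pseudocount of 5 or a 4-fold rule, 2 under TPM and 3 by a 1.5-fold rule. For WAT on these days 1 was lower at a pseudocount of 0.1, with median-ratio scaling or with the length trend removed, and 2 by a 1.5-fold rule. For BAT against WAT on day 0, 3 were higher under TPM and 2 by a 1.5-fold rule, and 1 was lower at a pseudocount of 5 and 0 under TPM or a 4-fold rule. By a 1.5-fold rule 1 was higher on day 4, and 1 higher and 1 lower on day 6. Depth, which was estimated, was lowest in WAT on day 0, and no value has a replicate.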
